A study of Mus musculus with 8 samples.

Results

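The genes examined were 37 that encode enzymes and carriers of fatty acid activation and oxidation, in proliferating C2C12 cells after silencing of the long non-coding RNA Pvt1. They were taken by name: every spot of the array that was not a control and whose gene name was 1 of the 37 listed symbols. That gave 69 of the 56605 probes on the array, for 37 of its 37074 named genes. C2C12 is a mouse myoblast line that divides in rich medium and can be induced to form myotubes. All 8 cultures were at passage 10, were proliferating myoblasts, and were transfected in a reduced-serum medium with added serum, with Lipofectamine 2000 and LNA GapmeRs, short antisense oligonucleotides that recruit RNase H to cut their target RNA. The 4 silenced cultures received GapmeRs against Pvt1 and the 4 negative control cultures (Mock) received Negative Control GapmeRs. The labels number them as biological replicates 1 to 4 of each group, and p-values measure the spread between these 8 cultures of 1 line. RNA was labelled with Cy3 and hybridised to one-colour Agilent arrays, 1 array for each culture.

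A fatty acid is first joined to coenzyme A by an acyl-CoA synthetase. The carnitine shuttle then carries the long-chain acyl group into the mitochondrion, where repeated rounds of dehydrogenation, hydration, a second dehydrogenation and thiolysis release acetyl-CoA, and electron transfer flavoprotein passes the electrons to the respiratory chain. Peroxisomes run a similar cycle for very long and branched chains, and resting skeletal muscle draws much of its ATP from these reactions.

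The sequences of the GapmeRs used for silencing, as the labels give them, are shown because every comparison rests on them.
Pvt1_1: accgtagtagagttaa
Pvt1_3: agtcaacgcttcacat

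Several members were read by probes at different places of the same transcript, and these did not always change in the same direction. For Cpt2 and Acaa1a, the called members in which this was so, the first 30 bases of the 60-base probe nearer the 5′ end and of the one nearer the 3′ end are given as the scanner files list them, with no part in capitals, and their changes follow below.
Cpt2, 5′ probe: attgtgaatccctcagaaatccaggcacat
Cpt2, 3′ probe: actgcagctctaaagcccttcttaaggaga
Acaa1a, 5′ probe: ctgctggagagtgagaaagccagagactgc
Acaa1a, 3′ probe: ccctggttgcaaagccatttgtacctttga

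On build mm9 the Cpt2 probes lie on the minus strand at chr4:107580325-107580384 and chr4:107576571-107576610. Those of Acaa1a lie on the plus strand at chr9:119255643-119256863 and chr9:119259353-119259412. The 5′ probe of Acaa1a spans more of the genome than its own length, as probes across an exon junction do.

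The arrays were similar in quality except for 2 of them. Between 58.8% and 62.5% of spots were positive and significant on 7 arrays, against 51.6% on silenced replicate 4, and the mean correlation of control replicate 3 with its group was 0.964 against 0.978 to 0.983 for the other 7. Pvt1 was lower in every silenced culture: its brightest probe read 9.86 ± 0.30 on the log2 scale in controls and 7.0 ± 0.63 in silenced cells (SD, n = 4 in each), a limma change of -2.86 (SE 0.32, adjusted p = 0.000682) that left 13.80% of the control signal. The sample identity was also examined with marker lists. All 9 myoblast markers were tested, of which 3 fell and none rose, while with the cyclic loess scaling described below 3 fell and Pax7 and Myf5 were called higher. Of 10 markers of the mature myofibre, 9 were tested and 3 fell, and with loess 3 fell and Myh2 was called higher. The probes of Myf5 and Myh2 were well above background on 0 of 8 arrays. Of 22 genes abundant in liver, 18 were not well above background in any control culture and 10 in any silenced one, among the latter Apoa1, Fga, Cyp3a11, Cps1 and Pck1. Alb, Serpina1a and Mup1 were well above background on all 4 silenced arrays. The summed signal of the list was 1330 to 2120 in controls and 5570 to 7100 after silencing, without overlap, and 4 of the 8 tested rose. Of 7 adipocyte genes 4 were tested and 1 fell in quantile values, and of 5 kidney genes 1 was tested and did not pass. The labels name no cells other than C2C12. Liver transcripts made by the C2C12 cells and RNA from another source cannot be told apart here. The part of liver transcripts in the changes below was not tested.

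Of the 37 members, 4 passed the test in the quantile-normalized values, and they moved in opposite directions. The peroxisomal thiolase Acaa1a and the carnitine palmitoyltransferase Cpt2 rose to 2.49-fold and 2.03-fold of control. Hadha, a subunit of the mitochondrial trifunctional protein, and the acyl-CoA synthetase Acsl5 were 2.35-fold and 1.77-fold higher in controls. Each gene was represented by its brightest tested probe, and a call was a Benjamini-Hochberg adjusted p under 0.05 in limma over all 28649 tested probes. Of 36 members with a tested probe, 2 rose (5.56%) and 2 fell (5.56%), while 32 did not pass. Over all 19360 named genes tested in the same way, 5.99% rose and 14.0% fell. The count of members that rose was 4 without control replicate 3 and 11 without silenced replicate 4, and 1 without control replicate 2, control replicate 4 or silenced replicate 1. Those that fell numbered 1 without control replicate 2 or control replicate 4. The shares of all genes called without each array are not given here, so these counts are not set against the whole array. The groups were unevenly spread over the slide, with control replicates 1 to 3 and silenced replicate 1 in the upper row. With the row as a block 1 member rose and 1 fell, and over all probes 534 rose and 2573 fell in place of 1373 and 5269.

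How many members passed depended on how the arrays were brought to a common scale. With cyclic loess in place of quantile normalization, 17 members rose (47.2%) and 2 fell (5.56%), against 22.1% and 14.3% of all named genes. The 17 were Acaa1a and Cpt2 with Acsl3, Acsl6, Cpt1c, Acadvl, Acadl, Acad9, Acad11, Acaa2, Hsd17b10, Decr1, Decr2, Acox3, Hsd17b4, Etfb and Etfdh, while Acsl5 and Hadha fell under both. With the slide row as a block under loess, 11 rose and 1 fell, and the shares of all genes in that fit are not given here. The calls lost were those of Acsl6 (limma adjusted p = 0.0513), Acadl (0.115), Acad11 (0.0542), Acaa2 (0.177), Decr2 (0.0826), Etfdh (0.0754) and Acsl5 (0.0733). With loess the count that rose was 10 without control replicate 1 and 11 without control replicate 4. The number of members whose silenced values all lay above their control values was 4 in quantile values (7.10% of all genes) and 17 with loess (23.9% of all genes). Those with all silenced values below were 3 in each, against 18.9% of all genes in quantile values and 16.1% with loess.

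The median change over the 36 members was 0.26 on the log2 scale with quantile normalization, beside -0.09 over all tested genes, and 0.43 beside 0.11 with cyclic loess. In quantile values it was 0.13 to 0.49 when each array was left out. With the mean of all tested probes of a gene it turned below 0, as given below. Members ranged from -1.23 to 1.31, with 21 above 0 and 15 below, and 23 lay above the median of all genes. On single arrays, the median deviation of the members from their own mean, less that of all genes, was -0.23, -0.14, -0.11 and -0.15 on control replicates 1 to 4 and 0.18, 0.21, 0.21 and 0.23 on silenced replicates 1 to 4. Each silenced array lay above each control array. The same held with loess, at -0.22 to -0.05 in controls and 0.11 to 0.22 in silenced cells.

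**Figure D1:**
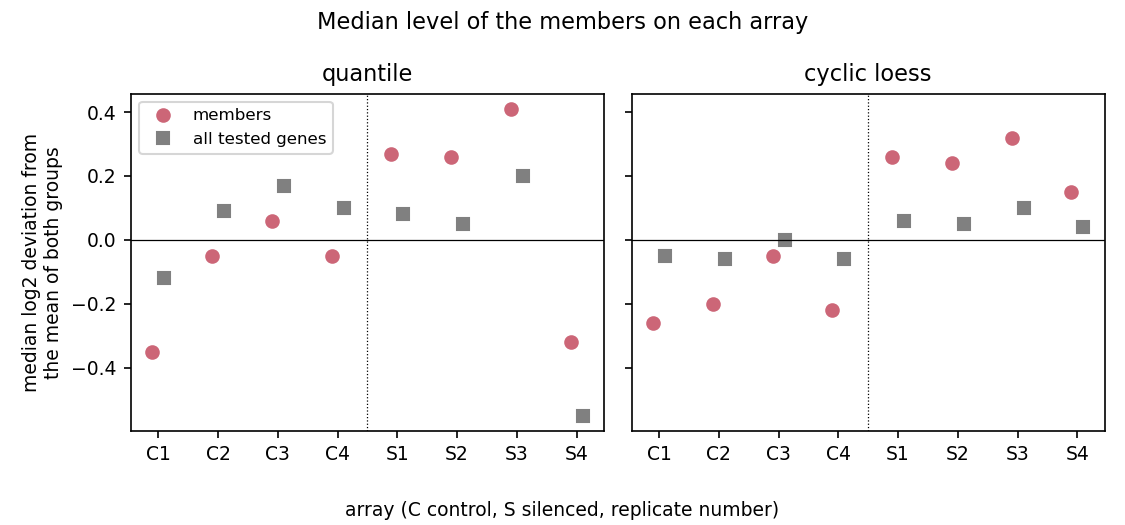
Median log2 deviation of the 36 tested members (circles) and of all 19360 tested genes (squares) from each gene's mean, for each array, with quantile normalization on the left and cyclic loess on the right. The members lie below all genes on every control array and above them on every silenced array, and with quantile normalization silenced replicate 4 is low for both sets.

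**Figure D2:**
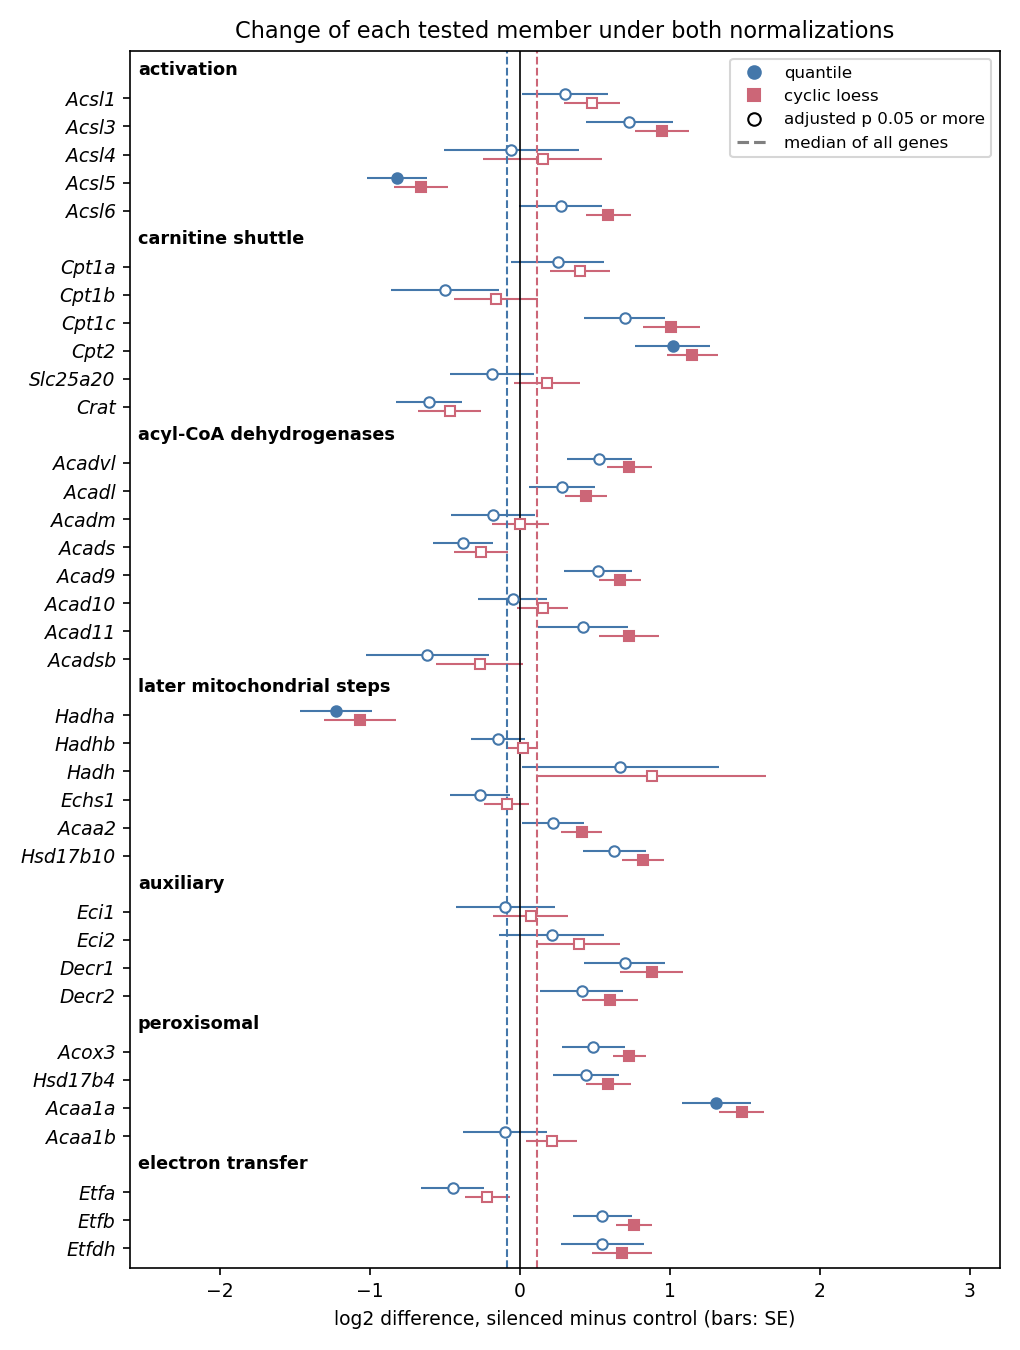
Change of each tested member, silenced minus control, on the log2 scale with its standard error, grouped by role, with quantile normalization as circles and cyclic loess as squares. Filled symbols passed an adjusted p of 0.05, and dashed lines give the median of all genes, -0.09 and 0.11. Loess values lie to the right of the quantile values for every member.

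Activation was represented by 5 acyl-CoA synthetases, all tested, of which 1 fell and 4 did not pass. Acsl5, found on mitochondria and the endoplasmic reticulum, read 12.84, 12.78, 12.78 and 12.84 on control replicates 1 to 4, and 12.17, 12.27, 11.66 and 11.85 on silenced replicates 1 to 4. The controls lay within 0.04 (SD, n = 4) of 12.81 and every silenced value was lower. Its change was -0.82 (SE 0.20, limma adjusted p = 0.0171), and less the median of all genes it was -0.73. With a shift of each array to its 75th percentile the change was -0.38 (limma adjusted p = 0.111). The call was lost under 9 of 23 alternatives, among them leaving out control replicate 2 (adjusted p = 0.0554) or control replicate 4 (0.0624) and the position on the slide as a block (0.0946), although the difference was -0.63 within the upper row of the slide and -0.91 within the lower one. The other tested probe of Acsl5, nearer the 3′ end, differed by -0.57 (0.231), or -0.19 (0.632) with loess.

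Acsl3, a form associated with lipid droplets, read 9.26, 9.43, 9.85 and 9.50 in controls and 10.33, 10.13, 10.93 and 9.56 in silenced cells. Only silenced replicate 4 overlapped with the controls. The change of 0.73 (SE 0.29) had a limma adjusted p of 0.104, and with loess it was 0.95 (0.00512). Acsl6, known mostly from brain, read 7.97, 8.24, 8.88 and 8.42 in controls and 8.88, 8.80, 8.86 and 8.03 in silenced cells. Control replicate 3 and silenced replicate 4 crossed over, and the change was 0.27 (limma adjusted p = 0.53), or 0.59 (0.017) with loess. Acsl1, the main form in muscle and fat, differed by 0.30 and the arachidonate-preferring Acsl4 by -0.06, and neither passed under either scale. Acsl4 read 13.11 to 13.22 in controls and 13.39, 13.48, 13.98 and 11.55 on silenced replicates 1 to 4, and without silenced replicate 4 the change was 0.46 (limma adjusted p = 0.0987).

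Of the 6 genes of the carnitine shuttle, all tested, only Cpt2 rose and none fell. Cpt2, the inner-membrane transferase that regenerates acyl-CoA in the matrix, read 10.95, 10.89, 11.46 and 11.12 in controls and 12.31, 11.97, 12.58 and 11.64 in silenced cells. Every silenced value was above the highest control. The change was 1.02 (SE 0.25, limma adjusted p = 0.0179), or 1.11 relative to all genes, with differences of 1.21 and 0.94 within the upper and the lower slide row. The call was lost without control replicate 2 (0.0635), without control replicate 4 (0.0542), without silenced replicate 1 (0.0559) and with the slide row fitted as a block (0.0615).

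The outer-membrane transferases, which commit long chains to import, gave no call in quantile values. Cpt1a, the form most abundant in liver, read 10.75, 11.11, 11.12 and 11.20 in controls and 11.50, 11.85, 11.41 and 10.40 in silenced cells. The first 3 silenced replicates were above all controls and replicate 4 was below them. Its change was 0.25, with a 95% interval of -0.44 to 0.93 (limma adjusted p = 0.609), and 0.40 (0.14) with loess. Leaving out each array gave 0.06 to 0.55, the latter without silenced replicate 4 (0.0635). Of 23 alternatives 1 called it higher, the shift to the 75th percentile (0.61, 0.0406). The muscle form Cpt1b read 6.75, 7.36, 8.28 and 6.98 in controls and 6.97, 6.93, 7.24 and 6.21 in silenced cells, where 3 of 4 arrays were well above background. The groups overlapped, and the change of -0.50 had a 95% interval of -1.30 to 0.30 (adjusted p = 0.349). The design also assigns this probe to a non-coding transcript, so its signal may not be of Cpt1b alone.

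Cpt1c, a neuronal form of the endoplasmic reticulum, read 7.98, 8.26, 8.99 and 8.28 in controls and 9.20, 9.38, 9.13 and 8.61 in silenced cells. Control replicate 3 was above silenced replicate 4. The change was 0.70 (limma adjusted p = 0.0895), or 1.01 (0.00467) with loess, and it passed without control replicate 3 (0.89, 0.0243). Slc25a20, the carnitine-acylcarnitine translocase of the inner membrane, differed by -0.19, and carnitine acetyltransferase Crat by -0.61 (adjusted p = 0.0752), with every silenced value of Crat below every control.

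**Figure D3:**
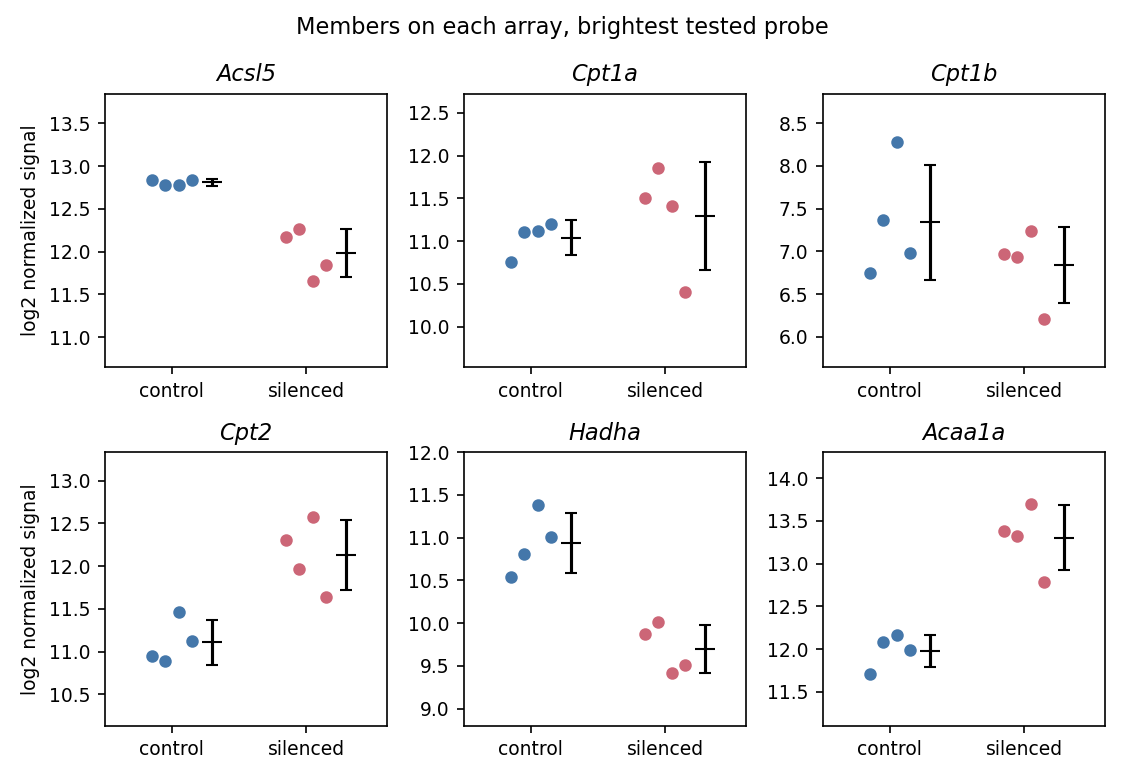
Log2 normalized signal on each array for Acsl5, Cpt1a, Cpt1b, Cpt2, Hadha and Acaa1a, brightest tested probe, quantile normalization, with mean and SD of the 4 arrays of each group beside the points. The vertical axes span the same range but start at different values. The groups are apart for Acsl5, Cpt2, Hadha and Acaa1a and overlap for Cpt1a and Cpt1b.

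The 8 acyl-CoA dehydrogenases, which take the first pair of electrons, gave no call in quantile values and 4 rises with loess. Acadvl, for very long chains, read 12.83, 13.08, 13.36 and 13.03 in controls and 13.60, 13.61, 13.95 and 13.27 in silenced cells. Silenced replicate 4 alone overlapped with the controls. Its change was 0.53 (limma adjusted p = 0.106), or 0.73 (0.00704) with loess. Acadl, for long chains, read 11.82, 11.90, 12.14 and 12.18 in controls and 12.48, 12.16, 12.61 and 11.92 in silenced cells, so that 2 silenced values lay within the control range. It changed by 0.28 (0.393), or 0.44 (0.0386) with loess.

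Acad9, which also takes part in the assembly of respiratory complex I, read 11.52, 11.64, 11.95 and 11.71 in controls and 12.40, 12.14, 12.59 and 11.79 in silenced cells. Silenced replicate 4 lay within the controls, and the change was 0.52 (limma adjusted p = 0.125), or 0.67 (0.00791) with loess. The other tested probes of Acad9, both well above background on all 8 arrays and both nearer the 5′ end, did not share that direction: they differed by -0.26 (0.358) and -0.69 (0.167), or -0.13 (0.515) and -0.50 (0.253) with loess. The mean of all its tested probes differed by -0.14 (0.666). Acad11 read 7.97, 8.76, 9.11 and 8.31 in controls and 9.02, 8.93, 9.44 and 8.45 in silenced cells. These groups overlapped in 3 silenced values, and the change was 0.42 (limma adjusted p = 0.347), or 0.73 (0.0224) with loess. The other 4 of the family did not pass under either scale: medium-chain Acadm at -0.18, short-chain Acads at -0.38, Acad10 at -0.05 and the short branched-chain Acadsb at -0.62.

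The later steps of the mitochondrial cycle held the largest fall among the members. Hadha, which carries the long-chain hydratase and dehydrogenase of the trifunctional protein, read 10.54, 10.81, 11.38 and 11.01 in controls and 9.87, 10.01, 9.42 and 9.51 in silenced cells. Every silenced value was below every control. The change was -1.23 (SE 0.24, limma adjusted p = 0.00691), with differences of -1.04 and -1.36 within the upper and the lower slide row and an adjusted p of 0.0406 with the row as a block. Hadha had 1 probe on the array (chr5:30446215-30446274, minus strand, mm9).

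Its partner Hadhb, the thiolase subunit of the same complex, read 12.58, 12.80, 12.68 and 12.75 in controls and 12.65, 12.70, 12.56 and 12.30 in silenced cells with its brightest probe. The groups overlapped, with a change of -0.15 and a 95% interval of -0.57 to 0.26 (limma adjusted p = 0.597). A middle probe of Hadhb fell by 0.95 on the log2 scale (adjusted p = 0.032). The starts of both genes lie back to back in the mouse genome, 272 bases apart in RefSeq on build GRCm38.p6, so both are transcribed from 1 intergenic stretch. The 228 bases that the promoter windows of both genes share (chr5:30155003-30155230, plus strand, reading towards Hadhb) are printed to show that stretch, with none of it in capitals because no motif searched here was found in it.
Hadha and Hadhb: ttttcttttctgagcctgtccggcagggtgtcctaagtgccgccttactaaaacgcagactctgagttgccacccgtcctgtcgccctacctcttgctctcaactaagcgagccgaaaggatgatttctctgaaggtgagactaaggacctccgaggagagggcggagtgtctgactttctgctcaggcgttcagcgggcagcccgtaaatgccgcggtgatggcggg

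Hsd17b10, a short-chain hydroxyacyl-CoA dehydrogenase that is also a subunit of mitochondrial ribonuclease P, read 12.43, 12.72, 13.00 and 12.77 in controls and 13.37, 13.43, 13.58 and 13.05 in silenced cells. Every silenced value was above every control. The change was 0.63 (SE 0.21, limma adjusted p = 0.0555), or 0.82 (0.00272) with loess. It passed without control replicate 3 (0.72, 0.0383) and without silenced replicate 4 (0.73, 0.0208). The mitochondrial thiolase Acaa2 read 14.19, 14.39, 14.57 and 14.48 in controls and 14.54, 14.61, 15.03 and 14.32 in silenced cells. These values overlapped, and the change was 0.22 (limma adjusted p = 0.504), or 0.41 (0.0472) with loess.

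Hadh, the short-chain dehydrogenase of the second oxidation, read 11.68, 12.15, 8.72 and 11.97 in controls and 11.84, 12.11, 11.46 and 11.79 in silenced cells. Control replicate 3 was far below every other array. The change was 0.67 with it (95% interval -0.81 to 2.15) and -0.13 without it, and neither passed. The short-chain hydratase Echs1 differed by -0.27.

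Unsaturated chains need auxiliary enzymes, and none of the 4 measured passed in quantile values. Decr1, the mitochondrial dienoyl-CoA reductase, read 11.95, 11.91, 12.57 and 12.19 in controls and 12.95, 12.74, 13.41 and 12.33 in silenced cells. Silenced replicate 4 was below control replicate 3, and the change was 0.70 (limma adjusted p = 0.0899), or 0.88 (0.0122) with loess. Its peroxisomal counterpart Decr2 read 14.50, 14.89, 14.11 and 14.68 in controls and 15.23, 15.11, 15.20 and 14.27 in silenced cells. The other silenced values were above all controls and replicate 4 lay within them, with a change of 0.41 (limma adjusted p = 0.324), or 0.60 (0.0395) with loess. The enoyl-CoA isomerases Eci1 and Eci2 differed by -0.10 and 0.21, and neither passed under either scale. Without silenced replicate 4 they differed by 0.25 (limma adjusted p = 0.271) and 0.57 (0.0521).

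Peroxisomal oxidation held the largest rise among the members. Acaa1a, 1 of a pair of mouse genes for the peroxisomal 3-ketoacyl-CoA thiolase, read 11.71, 12.08, 12.16 and 11.99 in controls and 13.38, 13.32, 13.70 and 12.79 in silenced cells. Every silenced value was above every control. The change was 1.31 (SE 0.23, limma adjusted p = 0.00449), with differences of 1.40 and 1.28 within the upper and the lower slide row and an adjusted p of 0.0258 with the row as a block. Its close paralog Acaa1b differed by -0.10 (95% interval -0.74 to 0.53). Whether a probe of one also binds the RNA of the other was not tested.

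Acox3, an oxidase of branched chains that takes the first peroxisomal step, read 9.14, 9.16, 9.32 and 9.38 in controls and 9.87, 9.85, 9.98 and 9.26 in silenced cells. Only silenced replicate 4 fell among the controls. The change was 0.49 (limma adjusted p = 0.131), or 0.73 (0.00195) with loess. Hsd17b4, the bifunctional enzyme of the next steps, read 11.65, 11.78, 12.26 and 11.96 in controls and 12.58, 12.26, 12.55 and 12.01 in silenced cells, where the groups overlapped. It changed by 0.44 (limma adjusted p = 0.187), or 0.59 (0.0148) with loess. Ehhadh, the other bifunctional enzyme, could not be tested, since its probe was positive and significant on 3 of 8 arrays and well above background on none.

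The 3 genes of electron transfer, which collect the electrons of all acyl-CoA dehydrogenases, gave no call with their brightest probes in quantile values and 2 rises with loess. Etfb, the beta subunit of electron transfer flavoprotein, read 13.41, 13.52, 13.69 and 13.50 in controls and 14.21, 14.09, 14.30 and 13.72 in silenced cells. Every silenced value was above every control, and the change was 0.55 (SE 0.20, limma adjusted p = 0.0739), or 0.76 (0.00252) with loess. Etfdh, which hands the electrons to ubiquinone, read 11.04, 11.44, 11.72 and 11.41 in controls and 12.05, 11.76, 12.57 and 11.40 in silenced cells. Silenced replicate 4 fell within the controls, with a change of 0.55 (limma adjusted p = 0.187), or 0.68 (0.0261) with loess.

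The alpha subunit Etfa had a change below 0 at each of its 3 tested probes. The brightest differed by -0.45 (limma adjusted p = 0.156), while the other probes fell by 0.79 (0.0141) and 0.84 (0.0236) on the log2 scale. For both of these, every silenced value lay below every control. Whether the subunits differed in response was not tested.

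Across all 58 tested probes of the members, 5 were called higher and 9 lower, while 4.79% of all tested probes were called higher and 18.4% lower. The remaining 11 probes had too few positive values to be tested. Cpt2 was the only member with a called probe in each direction in quantile values. With loess, Acsl3, Acad11 and Acaa1a also had one. Their 5′ probes fell by 1.40 (limma adjusted p = 0.0208), 0.77 (0.0265) and 0.51 (0.0478) on the log2 scale, and their 3′ probes rose by 0.95, 0.73 and 1.48. The 5′ probe of Cpt2 read 5.94, 6.64, 5.92 and 6.95 in controls and 4.23, 4.84 and 4.13 on the silenced arrays that gave a value. Only 2 control arrays and no silenced array read it well above background, so it was at least 1.15-fold higher in controls (computed change -1.96, limma adjusted p = 0.00445).

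Acsl3 showed the same order along the transcript. Its 5′ probe read 6.85, 7.57, 5.88 and 7.44 in controls and 5.25, 5.94, 5.51 and 4.19 in silenced cells, well above background on 3 control arrays and no silenced array. It was at least 1.70-fold higher in controls (computed change -1.71, limma adjusted p = 0.0236), while the 3′ probe had the change of 0.73 given above. Cpt1c had -1.0 (adjusted p = 0.0341) at its 5′ probe against 0.70 at its 3′ probe. That 5′ call was lost with loess (-0.68, 0.0647) and with the slide row as a block (0.11). Acaa1a had -0.83 (0.0573) against 1.31, and Etfb -0.38 (0.166) against 0.55. Acsl1 and Eci2 also had a probe below 0, at -0.59 and -0.40, beside 0.30 and 0.21 at the brightest, and no probe of either passed. In Acad11 the 5′ probe had a computed change of -1.18 (0.0311), but it was well above background on no array.

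Acsl4, Hadhb and Etfdh did not follow that order. In Acsl4 the probe nearest the 5′ end rose by 1.01 (limma adjusted p = 0.0291) and the brightest one, at the 3′ end, differed by -0.06, or 0.46 without silenced replicate 4. Hadhb had 0.03 at its 5′ probe and -0.15 at its 3′ probe, and Etfdh 0.56 (adjusted p = 0.466) and 0.55. The 5′ probe of Etfdh was dim: its value less the 3′ value averaged -6.76 in controls, and control replicate 1 gave none. Acox3 rose by 1.32 (adjusted p = 0.00536) and 1.67 (0.0152) at its middle probes, the second of which 1 of 4 control arrays read well above background, and differed by 0.49 at the brightest and 0.35 at the probe nearest the 5′ end.

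Over the 16 members with at least 2 tested probes in order on 1 strand, the change was lower at the 5′ probe in 13 (81.2%), with a median difference of -0.74 between the ends. Over all 6183 genes with such probes, it was lower in 70.2%, with a median of -0.43. The 5′ value less the 3′ value was lower on every silenced array with a value than on every control array in 6 of the 16 members (Acsl3, Cpt1c, Cpt2, Acad11, Acaa1a and Etfb) and higher in none, against 32.0% and 8.18% of the 6183 genes. The share of members was thus near that of all genes. In Acsl3, Cpt1c, Cpt2 and Acad11 the 5′ probe was well above background on at most 1 silenced array, and in Cpt2 and Acad11 silenced replicate 3 gave it no value. Acaa1a and Etfb were well above background at both ends on all 8 arrays, and their gap was -2.87 ± 0.11 and -1.05 ± 0.22 for control cultures and -5.01 ± 0.42 and -1.98 ± 0.16 for silenced ones (SD, n = 4 in each).

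**Figure D4:**
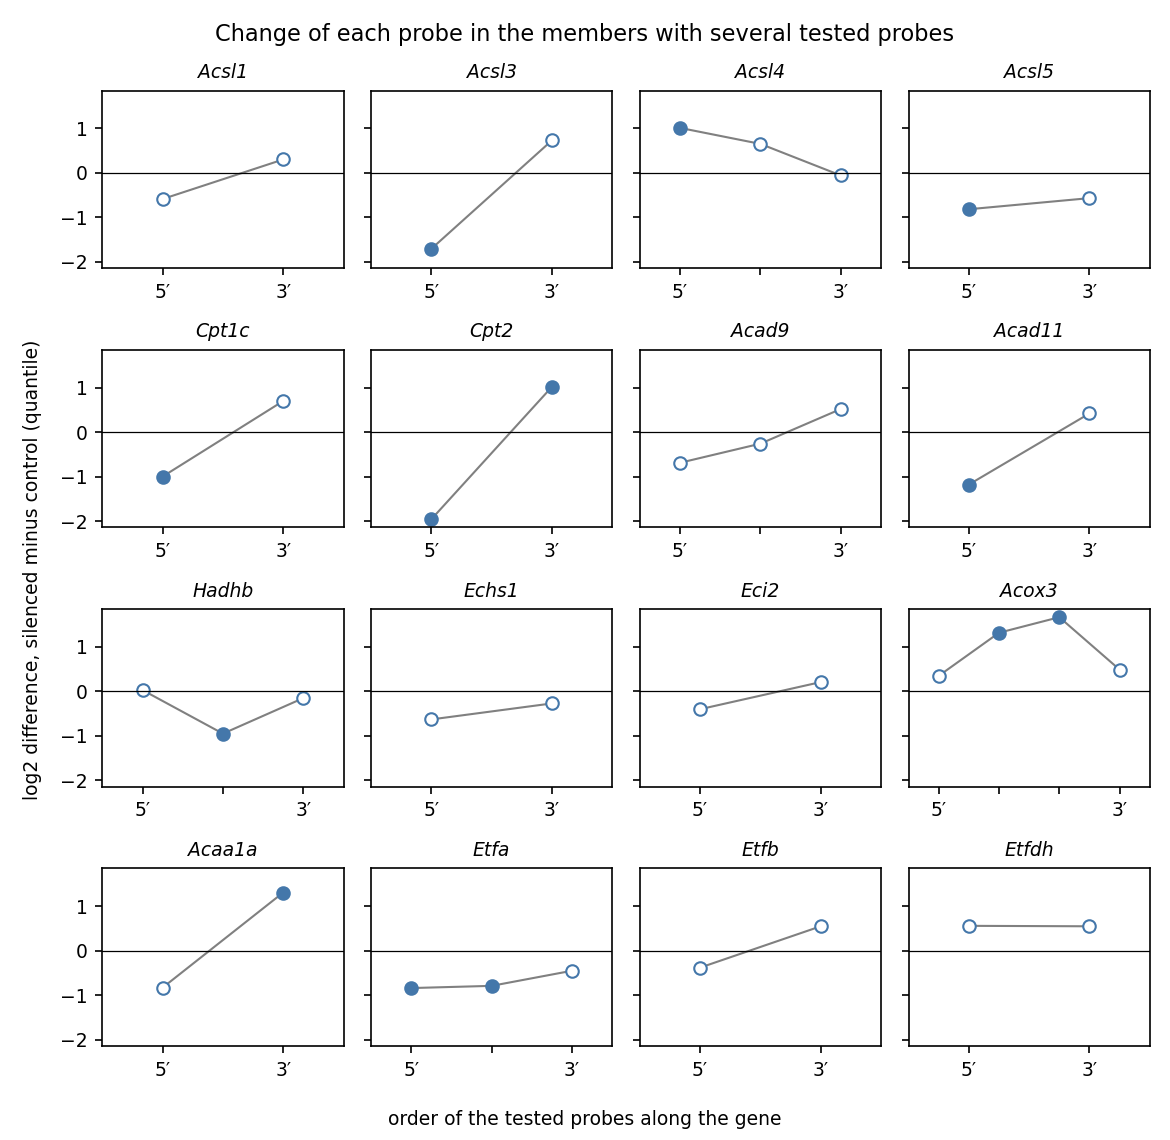
Change of each tested probe, silenced minus control, on the log2 scale with quantile normalization, in the 16 members with several tested probes, ordered from the 5′ to the 3′ end of the gene. Filled points passed an adjusted p of 0.05. Lines rise from left to right in most panels, most steeply in Cpt2 and Acsl3, whose 5′ probes were dim, and fall in Acsl4.

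The letters AATAAA or ATTAAA, which close to the 3′ end of a transcript can act as a polyadenylation signal, were present in 9 member probes. Of these probes 7 were tested, and none passed in quantile values. Those of Acsl3, Hsd17b10, Decr1, Decr2 and Etfb, and the second probe of Acsl4, rose with loess, by 0.60 to 0.95, where 18.9% of all tested probes rose and 18.4% fell. That of Cpt1b differed by -0.16. Whether each match is a signal in use was not tested, and the matching Acsl4 probe lies 2596 genomic bases from the 3′ probe of Acsl4. The part of the place of a probe in the calls of single members was not tested. With the mean of all tested probes in place of the brightest, Acaa1a changed by 0.24 (limma adjusted p = 0.516), Cpt2 by -0.23 (0.664) and the median of the members was -0.10. The median of all genes with that mean is not given here, and the -0.09 above is for brightest probes. Hadha, with its single probe, was unaffected by that choice.

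The promoters were searched for letters that known regulators of these genes bind, on both strands, from 250 bases before to 50 after each start in RefSeq (GRCm38.p6). An entry was found for 31 members. The nuclear receptor half-site AGGTCA was present in 6 (Acadm, Acadvl, Acsl6, Cpt1a, Cpt1c and Echs1), against 18.1% of all 27025 genes. The longer TCAAGGTCA, which contains it and is bound by oestrogen-related receptors, was present in Acsl6 only, against 0.466% of all genes. The E-box CACGTG, bound by Myc, was in none, against 8.09% of all genes. A direct repeat of the half-site with 1 base between was in none, against 0.0481% of all genes. A match or its absence in these windows is a description of the letters only.

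Genes around the pathway moved in both directions as well. Of 62 genes of uptake, carnitine supply, thioesterases, peroxisomes, related acyl-CoA enzymes and regulators, 54 were tested, and 5 rose and 6 fell, with a median change of 0.16 beside -0.09 over all tested genes, of which 5.99% rose and 14.0% fell. With loess 20 rose and 6 fell, against 22.1% and 14.3% of all genes. Acacb, which makes the malonyl-CoA that inhibits Cpt1, was read well above background on all 4 silenced arrays but on none of the controls, at least 2.71-fold higher in silenced cells (limma adjusted p = 0.0013). Mlycd, which degrades malonyl-CoA, rose by 1.19 (adjusted p = 0.0248).

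The fatty acid transporters Slc27a1 and Slc27a4 fell by 2.17 and 1.06 on the log2 scale (limma adjusted p = 0.0261 and 0.0255), and control replicate 3 read 9.34 for Slc27a1 against 11.98 to 12.28 on the other control arrays. Slc27a3 of the same family differed by 0.55 (0.312), and with loess it rose by 0.81 (0.0155). Tmlhe, the first enzyme of carnitine synthesis, fell by 0.94 (0.0195). Among related acyl-CoA and ketone enzymes, Acsf3 rose by 1.09, Mcee by 1.19 and Bdh1 by 1.46, while Pcca fell by 0.99. Of 11 regulators, 10 were tested and only Nrf1 passed in quantile values, with a fall of 1.13 (0.0158). With loess Nrf1 fell and 5 were called higher: Ppargc1a by 1.28, Prkaa2 by 0.86, Rxra by 0.63, Esrra by 0.60 and Ppargc1b by 0.42. Prkaa2 was well above background on 1 silenced array and no control array. In quantile values Prkaa2 differed by 0.55 (limma adjusted p = 0.275) and its groups overlapped, so a rise was not shown on that scale. Ppara, a receptor that drives many of the members in liver, was well above background on 1 of 8 arrays.

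With the slide row as a block, 3 of the 11 quantile calls around the pathway remained, among them Acacb (limma adjusted p = 0.00707) and Bdh1 (0.0439). The calls of Slc27a1 (0.0569), Slc27a4 (0.117), Tmlhe (0.0974), Mlycd (0.0764), Acsf3 (0.108), Mcee (0.0737), Pcca (0.0753) and Nrf1 (0.0689) were lost. With the row as a block under loess, Esrra (0.0697), Ppargc1b (0.113) and Prkaa2 (0.0645) lost theirs.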

How the data were processed

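RNA of 8 C2C12 cultures was measured on 8 one-colour arrays of 1 slide and 1 scan. The authors deposited scanner intensity files, background-subtracted per the file headers by Feature Extraction 12.0.0.7 (the submitters' notes give 10.7.3.1), with flags of 0 or 1 as other values. They also deposited a series table of processed intensity, used as an alternative. As in the study's methods, the deposited intensity was taken as log2 after spots not positive and significant were set to missing, quantile normalized and averaged per probe. Outlier flags and control spots were left out. Probes with at least 3 of 4 values per group were fitted with limma 3.58.1 under R 4.3.3, on group alone, with Benjamini-Hochberg adjustment at 0.05. The fit was tested on simulated data. The methods' t-test was an alternative.

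The members, lists and tests were chosen with earlier results of these data known. Members were given array by array where called in quantile or loess values, with Cpt1a and Cpt1b, and called genes of the pathway around them were named, except 1 that is not reported here. A gene was represented by its brightest tested probe. The bound for a probe dim in 1 group set the bright group's mean against the higher, on each dim array, of its own value and the lowest value well above background. The slide row held control replicates 1 to 3 with silenced replicate 1, or control replicate 4 with silenced replicates 2 to 4. The number of arrays limits precision. Figures were drawn with matplotlib 3.10.9.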

Additional observations from a re-analysis of the deposited data

Results flagged for a closer look

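In 5 of 74 groups of 4 arrays, 1 array stood apart from the other 3, where chance gives about 1 in 20 groups. In silenced replicate 4, the dimmest array, Acsl6 read 8.03 against 8.80 to 8.88, Acadm 11.72 against 12.72 to 12.93, Eci1 11.69 against 13.01 to 13.21 and Decr2 14.27 against 15.11 to 15.23 (log2 signal, quantile). In control replicate 3, Hadh read 8.72 against 11.68 to 12.15. Why these arrays stood apart was not tested.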

How the results depend on the processing

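Hadha kept its fall under all 23 alternatives (-1.38 to -0.96) and Acaa1a its rise under 22 of them, the exception being the mean of all tested probes (0.24). Cpt2 turned to -0.23 with that mean and missed the threshold under 5 others, and Acsl5 missed it under 9, the replicate block among them (adjusted p = 0.0565; -0.91 to -0.38 over all). Of 36 tested members, the 2 that rose became 17 with cyclic loess, 18 with a shift to the 75th percentile, 15 with the authors' series table, 14 with no masking of dim spots, 11 with loess and the slide row as a block, 6 with a robust trended prior, 5 with normexp at an offset of 50, and 1 with the slide row alone, the mean of all probes or the methods' t-test after adjustment (8 before). The 2 that fell became 1 with the 75th percentile, the slide row (loess or not), the probe nearest the 3′ end or the adjusted t-test, and 4 with the unadjusted one. Except for loess alone, the shares of all genes called under these settings are not given here. The member counts under them are thus not set against the whole array. The 14 member probes called became 30 with loess, 31 with the 75th percentile, 26 with the series table, 24 with no masking, 4 with the slide row and 6 or 25 with the t-test. The 11 called genes around the pathway became 26, 31, 24, 25, 3 and 3 or 18 under the same settings. Under loess, the slide row as a block left 11 higher and 1 lower. The median change of the members moved to 0.65 with the 75th percentile and -0.10 with the mean of all probes. The medians of all genes under those settings are not given here. Leaving out each array gave 1 to 11 members higher and 1 to 2 lower (10 to 17 and 1 to 2 with loess), 5 to 21 member probes, 4 to 21 genes around the pathway, a median of 0.13 to 0.49 and a Pvt1 change of -3.12 to -2.69. Same-numbered arrays did not deviate together (r = -0.04, 0.19, 0.22 and 0.06, with 2 of 4 silenced arrays closest to their own number), and the replicate number as a block left 1 member lower and 8 member probes called, with 1023 and 3994 probes higher and lower over the array against 1373 and 5269. Of the 5 Pvt1 probes the series table used here held 3, none well above background, and gave no value. The slide row combined with loess, the loess counts without each array and the differences within slide rows were added after the data were seen. Dim probes limit what can be read: 11 member probes were well above background on no array.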
